A study of Mus musculus with 22 samples.

Results

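The 36 genes described here encode the proteins that start an autophagosome, build its membrane, coat it with LC3 and fuse it with the lysosome. They were taken from the expression table by gene symbol, and all 36 were found among its 15725 symbols. All 36 also passed the filter on low values (at least 1 FPKM in at least 3 libraries), as did 11070 genes in all, and the lowest value of any of the 36 in any library was 1.74 FPKM. FPKM scales fragments to the length of the gene and to the size of the library, so levels of different genes are compared per length.

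The RNA came from primary microglia, the macrophages of the brain, shaken off mixed glia grown from the cortex of C57BL/6J mice aged 1 to 3 days. Every culture had received lipopolysaccharide (LPS), which is shed by bacteria and activates macrophages, at 100 ng/ml for 24 h, and no culture without LPS was analysed here. The 22 libraries fell into 5 groups: LPS alone (n = 3), LPS with 10 nM bafilomycin A1 (LPS+Baf A1, n = 5), LPS with 50 nM CLA (LPS+CLA, n = 6), 50 nM siRNA against Atg5 transfected for 48 h before LPS (LPS+siAtg5, n = 5), and its counterpart LPS+dNC (n = 3). The labels spell out neither CLA nor dNC; their protocol mentions control (NC) siRNAs beside the one against Atg5 but does not say that dNC is one. Baf A1 blocks the proton pump that acidifies lysosomes, and Atg5 is part of the complex that attaches LC3 to lipid. Whether the libraries of a group stem from different cultures is not stated in the labels. The p-values therefore reflect the spread among these libraries alone, and that spread may be technical.

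Autophagy begins when the ULK kinase complex is freed from inhibition by mTORC1, the nutrient-sensing kinase. It then activates a lipid kinase complex built on Beclin 1 and VPS34, whose product, the lipid PI3P, recruits WIPI proteins, while ATG9 vesicles, ATG2 lipid transporters and scramblases feed the growing membrane. ATG4 proteases prepare LC3 and GABARAP proteins for attachment to that membrane, and the SNARE proteins syntaxin 17, SNAP29 and VAMP8 with their tethers join the closed autophagosome to a lysosome. In microglia and other macrophages, parts of this machinery also serve LC3-associated phagocytosis, in which LC3 is placed on single membranes.

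The libraries of LPS+siAtg5 differed from the other 17 in their overall distribution. In them the median over genes was 4.53 to 4.8 FPKM, against 2.62 to 3.25 FPKM elsewhere, and 10752 to 10908 genes had 1 FPKM or more, against 9112 to 9571. Atg5 itself averaged 22.3 FPKM with dNC and 13.1 FPKM with its siRNA (log2 change -0.73, limma adjusted p = 4.05e-12). All 10 microglia markers looked at averaged at least 1 FPKM in 4 groups, and 9 of 10 did so in LPS+dNC, where Cx3cr1 stood at 0.11 to 0.27 FPKM and Csf1r at 121.8 to 182.33 FPKM, against 572.16 to 1028.54 FPKM for Csf1r in LPS. The 10 astrocyte markers summed to 280.1 to 326.18 FPKM in each LPS+siAtg5 library and to 4.9 to 19.31 FPKM in each other library, and none of the 10 was at 0 throughout a group. The sums of markers of other cells were also highest in LPS+siAtg5. The 7 neuron markers summed to 53.78 to 67.11 FPKM there and to 0.86 to 15.83 FPKM elsewhere. For 8 markers of the oligodendrocyte lineage the sums were 28.12 to 32.39 and 3.63 to 15.64 FPKM. For 7 of fibroblasts, mural and endothelial cells they were 45.98 to 69.71 and 4.73 to 26.1 FPKM. Of these 7, Col1a1, Col1a2, Col3a1, Pdgfrb and Rgs5 were highest in LPS+siAtg5, and Dcn and Pecam1 were not. Dcn averaged 6.21 FPKM there, 8.63 in LPS, 9.73 with Baf A1 and 10.6 with CLA. Pecam1 averaged 2.51 FPKM there, 4.215 with CLA and 2.59 in LPS+dNC. Mog was at 0 in LPS+Baf A1 and LPS+CLA, and Rgs5 in every group but LPS+siAtg5. In bulk RNA, fewer cells of a type and less RNA per cell cannot be told apart. LPS replicate 3, LPS+dNC replicate 1 and LPS+CLA replicate 2 lay further from their group mates than other libraries did, and values without them are given where they end or make a call.

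In cells given LPS alone the 36 genes covered a wide range of levels. Gabarap, which encodes a ubiquitin-like protein of the LC3 family, was the highest at 304 ± 40.8 FPKM (SD, n = 3), followed by Vamp8, a SNARE of the lysosomal side, at 201.7 ± 18.6 FPKM. Vmp1, an endoplasmic reticulum scramblase, stood at 71.2 ± 8.66 FPKM, Becn1, which encodes Beclin 1, at 57.8 ± 5.45 FPKM and Map1lc3b, the most widely used LC3 marker, at 50 ± 2.81 FPKM. Vmp1, Becn1 and Map1lc3b are neighbours in this order, and the libraries of Vmp1 (64.42 to 80.95 FPKM) lay above those of Becn1 (52.43 to 63.32 FPKM) while those of Becn1 and Map1lc3b (47.12 to 52.74 FPKM) overlapped. At the low end stood Epg5, a tether for fusion, at 3.7 ± 1.02 FPKM and Wipi1, a PI3P-binding protein, at 1.99 ± 0.305 FPKM. In all 5 groups the highest member was Gabarap for the LC3 family, Vamp8 for fusion, Vmp1 for membrane supply and Becn1 for nucleation. For initiation the highest mean differed by group. It was that of Rb1cc1 in LPS, Atg13 with Baf A1, Atg101 with CLA and in LPS+dNC, and Ulk2 in LPS+siAtg5.

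Each comparison was a contrast of 1 limma model on log2(FPKM + 1), and calls required a p under 0.05 after adjustment over all 11070 genes. Fold changes on this scale understate the change of low genes. With Baf A1, 14 of the 36 genes rose (38.9%, against 32.7% of all genes tested) and 5 fell (13.9%, against 25.1%). The rises were 6 of the 9 genes of membrane supply, 6 of the 9 genes of the LC3 family and its ATG4 proteases, and 2 of the 5 genes of initiation. The falls were 3 of the 7 genes of nucleation, 1 gene of initiation and 1 of the 6 genes of fusion. The median log2 change of the 36 genes was 0.10, and that of all genes tested was 0.04. When libraries were rescaled to the same sum, 10 rose and 6 fell. Markers of other cells moved as well: of those tested, 3 of 10 astrocyte markers rose and 1 fell, 3 of 6 neuron markers fell, 1 of 5 oligodendrocyte markers rose and 1 fell, and 4 of 6 fibroblast, mural and endothelial markers rose. Their sums in LPS and LPS+Baf A1 were 8.17 to 12.55 and 16.63 to 19.31 FPKM (astrocyte), 12.11 to 15.83 and 7.02 to 10.17 FPKM (neuron), 13.28 to 13.78 and 12.6 to 15.64 FPKM (oligodendrocyte) and 9.97 to 14.8 and 15.34 to 20.25 FPKM (fibroblast, mural and endothelial), and their part in the members' changes was not tested.

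Against LPS+dNC, the Atg5 siRNA went with 19 of the 36 genes higher (52.8%, against 59.6% of all genes tested) and 8 lower (22.2%, against 21.6%). By step, 2 of 5 genes of initiation rose and none fell, 3 of 7 of nucleation rose and 1 fell, 6 of 9 of membrane supply rose and 3 fell, 5 of 9 of the LC3 family and ATG4 rose and 3 fell, and 3 of 6 of fusion rose and 1 fell. The median log2 change of the 36 genes was 0.19 while that of all genes was 0.34, lower for the members than for all genes. This split depended on scaling: 9 rose and 16 fell under median-of-ratios scaling, 10 rose and 16 fell under quantile normalization, and 26 rose and 6 fell when libraries were rescaled to the same sum. Median-of-ratios and quantile scaling moved the median change of all genes from 0.34 to 0.05 and -0.01, and the rescaling moved it to 0.60. Of the 27 calls, 13 held under each of the 18 alternatives run: Ulk2, Rb1cc1, Wipi1, Tmem41b, Map1lc3a, Gabarapl1 and Atg4b rose, and Uvrag, Atg9a, Vmp1, Gabarap, Gabarapl2 and Atg4d fell. The astrocyte marker sums given above were higher in LPS+siAtg5 than in LPS+dNC in the same libraries, with 10 of 10 markers called as risen. Also called as risen were 6 of 6 neuron, 5 of 5 oligodendrocyte, and 5 of 6 fibroblast, mural and endothelial markers tested. Of the microglia markers, 8 of 10 rose and 2 fell. The part of all these markers in the members' changes was not tested.

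With CLA, 14 of the 36 genes rose (38.9%, against 40.4% of all genes tested) and 8 fell (22.2%, against 22.6%), with a median log2 change of -0.001 beside 0.09 for all genes. By step, 2 genes rose and 2 fell in initiation, none rose and 2 fell in nucleation, 6 rose and 1 fell in membrane supply, 4 rose and 1 fell in the LC3 family and ATG4 group, and 2 rose and 2 fell in fusion. The split became 9 risen and 17 fallen under median-of-ratios scaling, 9 and 14 under quantile normalization and 9 and 12 after rescaling to the same sum. Without such scaling, the shares of 38.9% and 22.2% were near those of all genes in both directions. Of the markers tested, 6 of 6 of neurons fell, 2 of 10 of astrocytes rose and 4 fell, 1 of 5 of oligodendrocytes rose and 2 fell, and 4 of 6 of fibroblasts, mural and endothelial cells rose. Their sums with CLA were 0.86 to 7.09 FPKM (neuron), 10 to 14.37 FPKM (astrocyte), 11.46 to 13.12 FPKM (oligodendrocyte) and 13.67 to 26.1 FPKM (fibroblast, mural and endothelial), and their part was not tested. The LPS+Baf A1 and LPS+CLA comparisons share the 3 LPS libraries as their control, so their values below stand side by side and their likeness was not measured.

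**Figure D1:**
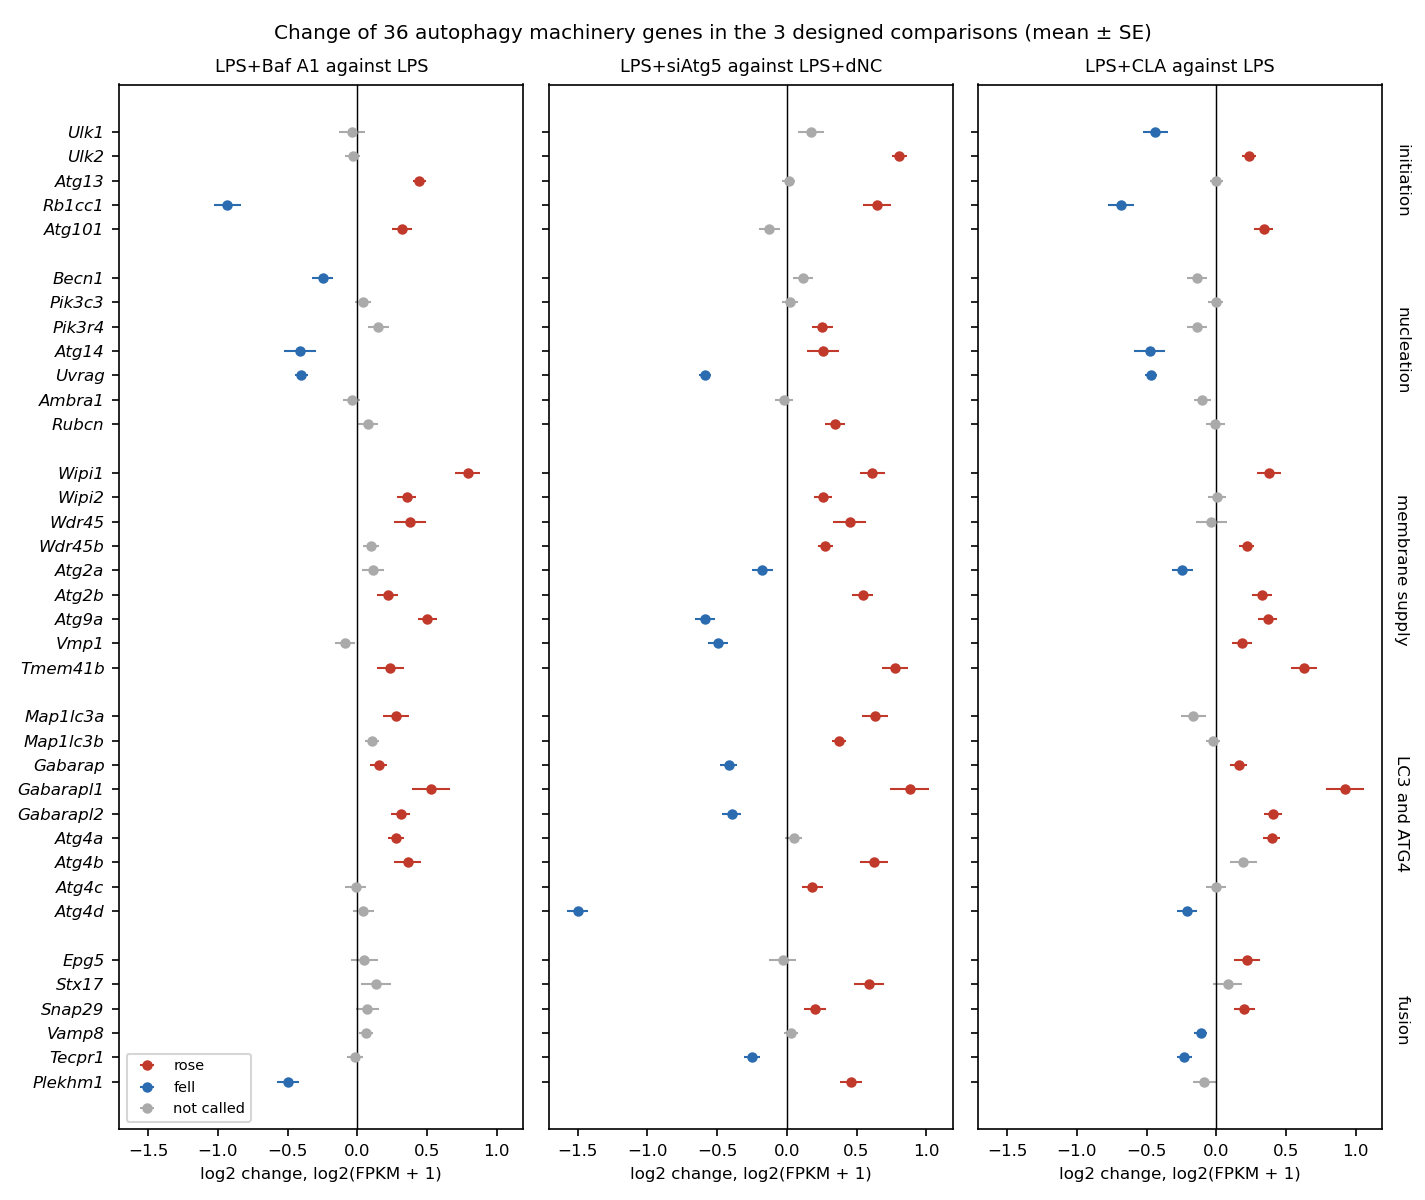
Log2 change on the log2(FPKM + 1) scale (x axis, bars are SE) of the 36 genes, ordered by step, in the 3 comparisons named in the design; red and blue points were called as risen or fallen at an adjusted p under 0.05 and grey points were not. Rb1cc1 is the lowest point with Baf A1 (-0.93) and with CLA (-0.68), Atg4d is the lowest with siAtg5 (-1.50), and Gabarapl1 lies to the right in each panel (0.53, 0.88 and 0.92).

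The sequences before the start sites of Uvrag, Wipi1 and Gabarapl1 are shown because these genes were called in 1 direction in each of the 3 designed comparisons, 2 of which share their control. Atg2b and Tmem41b were called as risen in each of the 3 as well, but annotated UTRs cover 203 and 250 of the 250 bases of their windows, which are not printed. The windows of Wipi1 and Gabarapl1 hold 43 and 32 such bases, which are cut off. The sequences are the RefSeq promoter windows on GRCm38.p6, 5′ to 3′ on the strand of the gene, ending before the first base that GENCODE M21 annotates as UTR. Capitals mark GGGCGG, a GC box, and CCAAT, on either strand. Uvrag is at chr7:99141145-99141394 (minus strand), Wipi1 at chr11:109611433-109611639 (minus strand) and Gabarapl1 at chr6:129532942-129533159 (plus strand). The Wipi1 stretch lies inside the gene as GENCODE M21 bounds it (chr11:109573331-109611967).
Uvrag: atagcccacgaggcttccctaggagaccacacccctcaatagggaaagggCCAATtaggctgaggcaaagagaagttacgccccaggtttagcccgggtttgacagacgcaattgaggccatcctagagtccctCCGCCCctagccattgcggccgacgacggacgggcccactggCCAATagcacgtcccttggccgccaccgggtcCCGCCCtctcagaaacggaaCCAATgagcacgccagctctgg
Wipi1: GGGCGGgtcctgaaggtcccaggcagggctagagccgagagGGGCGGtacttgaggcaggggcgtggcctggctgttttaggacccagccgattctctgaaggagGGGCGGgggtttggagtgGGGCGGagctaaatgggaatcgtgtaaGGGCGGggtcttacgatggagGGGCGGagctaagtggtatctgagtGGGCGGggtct
Gabarapl1: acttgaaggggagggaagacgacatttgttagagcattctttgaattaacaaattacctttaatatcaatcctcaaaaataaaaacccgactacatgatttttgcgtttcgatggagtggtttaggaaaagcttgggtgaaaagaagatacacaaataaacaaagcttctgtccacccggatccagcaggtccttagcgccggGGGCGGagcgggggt

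RefSeq windows were found for 30 of the 36 genes, and 5 motifs were searched in the 250 bases before each start on both strands, each counted on its own. GGGCGG occurred in 17 of the 30 (56.7%) and in 35.4% of 27025 genes, and CCAAT in 11 of the 30 (36.7%) and in 37.5% of all genes. CACGTG, a core of the CLEAR element that TFEB and related factors bind, occurred in 1 member, Rubcn (3.33%), and in 6.86% of all genes. TGACGTCA, the cyclic AMP response element, and TGTTTAC, a forkhead motif, were in none of the 30, and in 1.77% and 3.54% of all genes. These counts describe letters in a short window and say nothing of which factor was bound.

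Initiation rests on the ULK kinases and their partners, and Rb1cc1, which encodes the scaffold FIP200, had the largest change of this step. Rb1cc1 read 13.97, 15.14 and 12.7 FPKM in the LPS libraries, 8.42, 5.54, 6.18, 6.48 and 7.8 FPKM with Baf A1, and 7.42 to 9.39 FPKM with CLA (median 8.18). All Baf A1 and CLA libraries lay below every LPS library. On the log2 scale Rb1cc1 fell with Baf A1 (-0.93, SE 0.099, limma adjusted p = 4.12e-08) and with CLA (-0.68, SE 0.096, adjusted p = 1.66e-06). In LPS+dNC Rb1cc1 read 6.84, 6.67 and 7.46 FPKM, as low as with the 2 compounds, and in LPS+siAtg5 12.19, 10.55, 12.3, 12.33 and 10.24 FPKM. The change with siAtg5 was therefore 0.65 (SE 0.099, adjusted p = 3.02e-06) against LPS+dNC and -0.26 against LPS, where it was called as fallen.

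Ulk2, one of the ULK kinases, rose with siAtg5 and with CLA. Its values were 6.52, 7.17 and 6.38 FPKM in LPS+dNC and 12.42, 12.3, 12.32, 12.5 and 12.63 FPKM in LPS+siAtg5, groups that did not overlap (log2 change 0.81, SE 0.052, limma adjusted p = 2.77e-12). With CLA Ulk2 ran from 8.01 to 9.21 FPKM (median 8.54), above the 6.66 to 7.4 FPKM of LPS (0.24, adjusted p = 0.000314). Its relative Ulk1 did not follow: Ulk1 fell with CLA (3.7 against 5.35 FPKM, log2 change -0.44, adjusted p = 0.00022) and was at -0.04 with Baf A1 and 0.17 with siAtg5, neither called. Without the 3 libraries that lay apart, Ulk1 was called as fallen with Baf A1 (-0.17) and as risen with siAtg5.

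Of the other partners of the ULK complex, Atg101 was called with both compounds in the reported model, and Atg13 with Baf A1 but not CLA. Atg101, which stabilises ATG13, read 11.08, 12.9 and 13.52 FPKM in LPS and 15.27, 16.19, 15.01, 16.64 and 16 FPKM with Baf A1, without overlap (log2 change 0.32, SE 0.073, limma adjusted p = 0.000673), and 15.52 to 16.69 FPKM with CLA (0.34, adjusted p = 0.000234). With siAtg5 Atg101 was at -0.12 and not called, and without LPS+siAtg5 replicate 4 it was called at -0.17 (adjusted p = 0.0342). Atg13, the adaptor of the complex, rose with Baf A1 from 11.5 ± 0.42 to 16 ± 0.793 FPKM (0.44, SE 0.047, adjusted p = 3.77e-08), and with CLA and siAtg5 its changes were 0.001 and 0.01. Under median-of-ratios scaling Atg13 was called as fallen with siAtg5 (-0.29) and with CLA (-0.13).

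**Figure D2:**
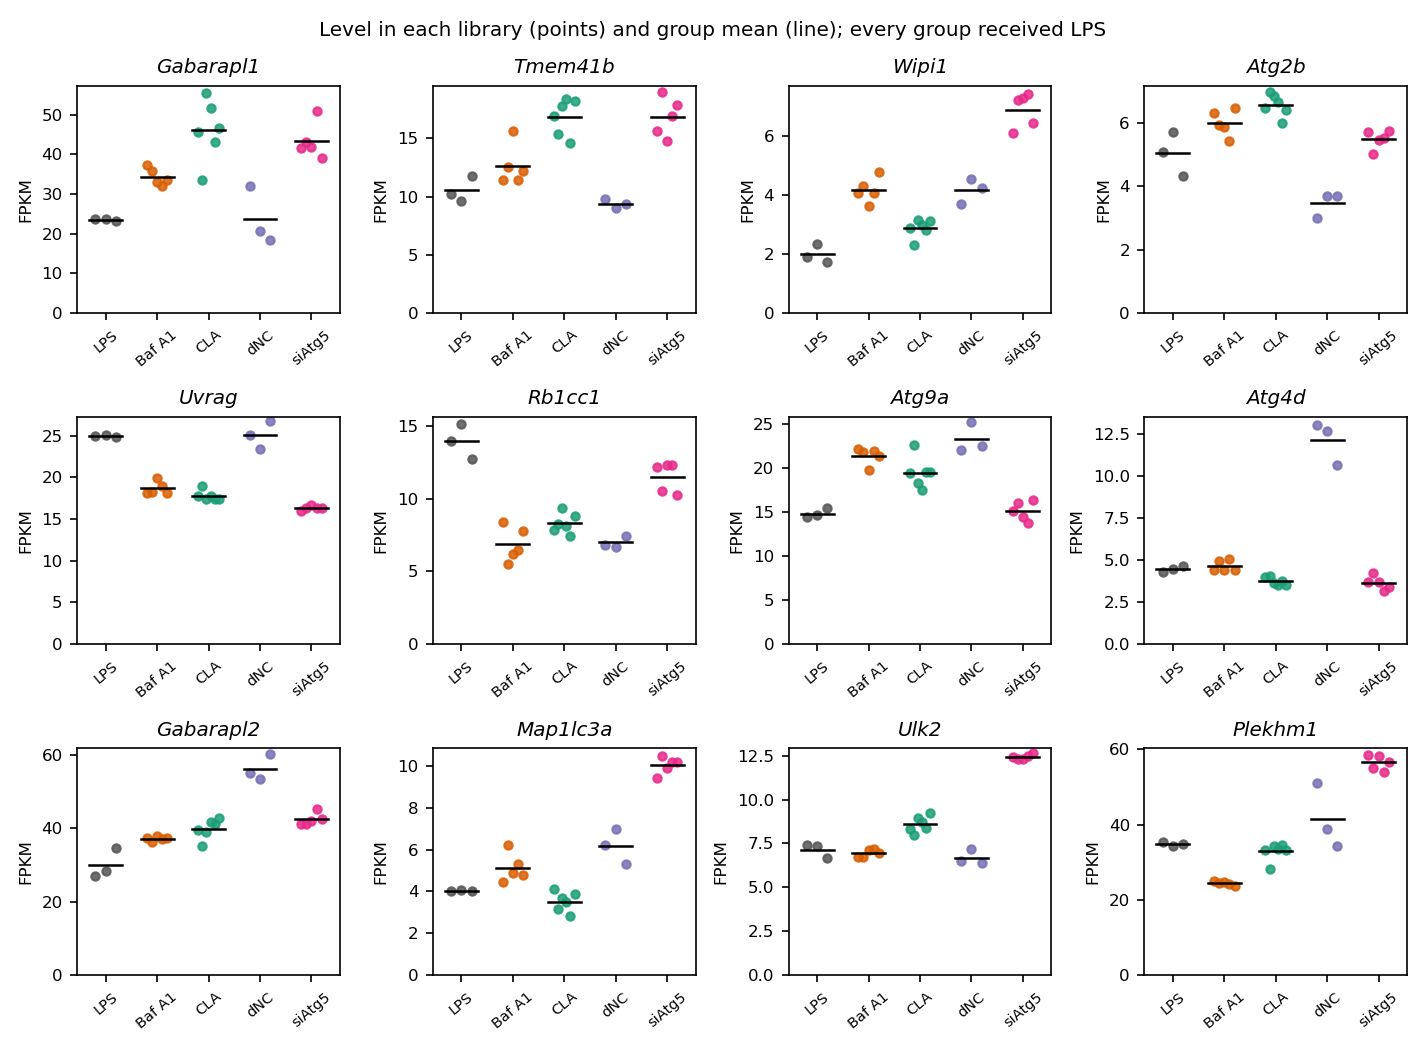
FPKM (y axis, from 0) of 12 of the genes in each library (points) and the group mean (line) for the 5 groups on the x axis, all given LPS. Uvrag is lower in all Baf A1, CLA and siAtg5 libraries than in any LPS or dNC library, Atg4d is high in the dNC libraries alone (10.66 to 12.99 FPKM), and Rb1cc1 is high in LPS and siAtg5.

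Nucleation depends on VPS34 (Pik3c3) and its regulatory kinase-like subunit (Pik3r4) with Beclin 1, which join either ATG14, for new autophagosomes, or UVRAG, for late endosomes and autophagosome maturation. Uvrag read 24.95, 25.11 and 24.77 FPKM in LPS and 25.01, 23.37 and 26.69 FPKM in LPS+dNC. It read 18.17, 18.2, 19.91, 18.94 and 18.08 FPKM with Baf A1, 17.35 to 18.92 FPKM (median 17.6) with CLA and 15.93, 16.3, 16.68, 16.26 and 16.36 FPKM with siAtg5. Every library of the 3 treated groups lay below every control library. The log2 changes were -0.40 (SE 0.045, limma adjusted p = 1.14e-07) with Baf A1, -0.47 (SE 0.044, adjusted p = 3.89e-09) with CLA and -0.59 (SE 0.045, adjusted p = 5.81e-11) with siAtg5, and it was -0.58 with siAtg5 when set against LPS.

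Atg14 fell with both compounds, from 5.41 ± 0.572 FPKM in LPS to 3.87 FPKM with Baf A1 (log2 change -0.41, SE 0.12, limma adjusted p = 0.00384) and 3.61 FPKM with CLA (-0.48, SE 0.11, adjusted p = 0.000734). LPS+Baf A1 replicate 5, at 5.64 FPKM, overlapped the LPS libraries, and the other 4 lay at 3.31 to 3.51 FPKM. With siAtg5 Atg14 was called as risen (0.26, adjusted p = 0.0439), a call that held in 7 of 18 alternatives: leaving out LPS+dNC replicate 1, 2 or 3 gave 0.25, 0.25 and 0.27 (adjusted p = 0.0882, 0.0936 and 0.0733), leaving out LPS+siAtg5 replicate 1 or 4 gave 0.23 in both cases (adjusted p = 0.0842 and 0.0857), and over all alternatives the adjusted p ran up to 0.931.

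Becn1 read 52.43, 57.58 and 63.32 FPKM in LPS and 43.77, 46.53, 49.37, 53.45 and 48.9 FPKM with Baf A1, groups that overlapped (log2 change -0.25, SE 0.073, limma adjusted p = 0.00576). Without LPS replicate 3 the change was -0.18 (adjusted p = 0.0547), and this was the only alternative that ended the call. With CLA it ran from 45.06 to 58.9 FPKM (-0.14) and with siAtg5 from 48.38 to 56.77 FPKM, against 47.28 to 48 FPKM in LPS+dNC (0.12), and neither change was called. With CLA Becn1 was called as fallen without LPS replicate 1 (-0.20, adjusted p = 0.032) or LPS+CLA replicate 1 (-0.17, adjusted p = 0.0398). The same call was made under median-of-ratios scaling, quantile normalization and rescaling to the same sum (down to -0.28 over the alternatives). Pik3c3, the catalytic subunit, was not called in any of the 3 comparisons, with changes of 0.04, 0.02 and -0.003, and its libraries lay between 9.59 and 11.78 FPKM throughout. Nor was Ambra1, a Beclin 1 activator, called (-0.04 with Baf A1, -0.02 with siAtg5 and -0.10 with CLA). Without LPS replicate 3, however, Ambra1 was called as fallen with Baf A1 (-0.15, adjusted p = 0.0132) and CLA (-0.21, adjusted p = 0.00076), and under median-of-ratios scaling with siAtg5 (-0.32) and CLA (-0.24). With siAtg5 Pik3r4 (0.25) and Rubcn (0.34), which encodes the UVRAG partner Rubicon that restrains fusion and is needed for LC3-associated phagocytosis, rose, but Pik3r4 read -0.03 under median-of-ratios scaling and Rubcn 0.05, and neither was called as risen there. Pik3r4 was not called with Baf A1 (0.15) or CLA (-0.14), but was without LPS+Baf A1 replicate 1 (0.20, adjusted p = 0.0232) and, as fallen with CLA, without LPS replicate 3 (-0.19, adjusted p = 0.0393). With CLA Pik3r4 was also called as fallen with array weights and under median-of-ratios scaling, quantile normalization and rescaling to the same sum (down to -0.26 over the alternatives).

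The membrane supply group holds the PI3P-binding WIPI proteins, the ATG2 lipid transporters, ATG9A and the scramblases VMP1 and TMEM41B. Wipi1 was the lowest of the 36 genes in LPS, with 1.9, 2.33 and 1.74 FPKM, and read 4.09, 4.31, 3.63, 4.07 and 4.77 FPKM with Baf A1 (log2 change 0.79, SE 0.089, limma adjusted p = 1.02e-07). With CLA it ran from 2.32 to 3.15 FPKM (median 2.94), with the lowest library, replicate 2, just within the LPS range (0.38, SE 0.086, adjusted p = 0.000596). In LPS+dNC it read 3.71, 4.54 and 4.25 FPKM and in LPS+siAtg5 6.1, 7.24, 7.28, 7.42 and 6.44 FPKM, without overlap (0.61, SE 0.089, adjusted p = 1.53e-06). Set against LPS, the siAtg5 change was 1.40.

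Tmem41b read 10.21, 9.65 and 11.73 FPKM in LPS and 14.56 to 18.34 FPKM (median 17.3) with CLA, without overlap (log2 change 0.63, SE 0.092, limma adjusted p = 2.84e-06). It read 9.77, 9.03 and 9.32 FPKM in LPS+dNC and 15.65, 18.99, 14.75, 16.92 and 17.89 FPKM in LPS+siAtg5, again without overlap (0.78, SE 0.095, adjusted p = 1.06e-07). With Baf A1 the values were 11.38, 12.54, 15.59, 11.39 and 12.22 FPKM, which overlapped LPS. That change (0.24, adjusted p = 0.0371) was called in 8 of 18 alternatives, and without LPS replicate 1 or 2 it was 0.22 and 0.18 (adjusted p = 0.107 and 0.171), without LPS+Baf A1 replicate 2 or 3 0.24 and 0.16 (adjusted p = 0.054 and 0.113). The highest adjusted p over the alternatives was 0.216.

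Atg2b and Atg2a, the pair of lipid transporters, differed. Atg2b read 3, 3.68 and 3.7 FPKM in LPS+dNC and 5.71, 5.03, 5.46, 5.51 and 5.73 FPKM in LPS+siAtg5 (log2 change 0.54, SE 0.075, limma adjusted p = 7.04e-07), and 6 to 6.96 FPKM with CLA against 4.33 to 5.72 FPKM in LPS (0.33, adjusted p = 0.000439). Its rise with Baf A1 (0.22, adjusted p = 0.0164) was 0.13 without LPS replicate 3 (adjusted p = 0.149) and held in 13 of 18 alternatives. Under quantile normalization its siAtg5 change was 0.07 and not called. Atg2a fell with CLA, from 6.95 to 5.71 FPKM (-0.24, adjusted p = 0.00727). With siAtg5 it was called as fallen (-0.17, adjusted p = 0.043) in the reported model and in 9 of 18 alternatives, and without LPS+dNC replicate 1 or 2 it was -0.14 and -0.10 (adjusted p = 0.16 and 0.281), without LPS+siAtg5 replicate 1, 2 or 4 -0.16, -0.17 and -0.15 (adjusted p = 0.0759, 0.06 and 0.0884), with adjusted p up to 0.78 over the alternatives. Without LPS+dNC replicate 3 it was -0.29 (adjusted p = 0.00181).

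Atg9a, the scramblase of ATG9 vesicles, rose with both compounds. It read 14.43, 14.63 and 15.43 FPKM in LPS, 22.17, 21.83, 19.76, 21.92 and 21.34 FPKM with Baf A1 (log2 change 0.50, SE 0.069, limma adjusted p = 1.79e-06), and 17.47 to 22.61 FPKM (median 19.5) with CLA (0.37, SE 0.067, adjusted p = 4.76e-05), and neither group overlapped LPS. In LPS+dNC it was also high, at 22.06, 25.23 and 22.49 FPKM, and in LPS+siAtg5 it read 15.17, 16.03, 14.49, 13.71 and 16.37 FPKM. The change with siAtg5 was -0.59 against LPS+dNC (adjusted p = 5.8e-08) and 0.03 against LPS, not called. Vmp1 had the same order of groups for the siRNA, with 101.67, 100 and 97.58 FPKM in LPS+dNC, 74.71, 74.94, 65.16, 70.6 and 68.37 FPKM in LPS+siAtg5 (-0.49, SE 0.073, adjusted p = 1.84e-06) and 64.42, 68.19 and 80.95 FPKM in LPS (change against LPS -0.004, not called). With CLA Vmp1 ran from 66.92 to 85.55 FPKM and overlapped LPS (0.19, adjusted p = 0.0255), and without LPS replicate 1 or 2 or LPS+CLA replicate 4 this was 0.12, 0.16 and 0.17 (adjusted p = 0.201, 0.105 and 0.0502, and up to 0.603 over the alternatives), while without LPS replicate 3 it was 0.28 (adjusted p = 0.00165).

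Of the remaining PI3P-binding proteins, Wipi2, which brings the LC3-attaching complex to the membrane, rose with Baf A1 (13.4 against 10.3 FPKM, log2 change 0.35) and with siAtg5 (0.26) and was at 0.004 with CLA. Wdr45 rose with Baf A1 (0.38) and siAtg5 (0.45) and was at -0.03 with CLA, and its Baf A1 and siAtg5 libraries did not overlap those of their controls. Wdr45b rose with siAtg5 (0.28) and CLA (0.22) and was at 0.10 with Baf A1, not called, but was called there without LPS replicate 2 (0.16, adjusted p = 0.0275). Its CLA rise was 0.08, 0.11 and 0.13 and not called under median-of-ratios scaling, quantile normalization and rescaling to the same sum. With siAtg5 the rises were not called under median-of-ratios scaling or quantile normalization: Wipi2 read -0.04 and -0.06, Wdr45b -0.04 and 0.11, and Wdr45 0.18 and -0.01.

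The LC3 family comprises LC3A and LC3B (Map1lc3a, Map1lc3b) and GABARAP with its relatives (Gabarap, Gabarapl1, Gabarapl2), which are attached to the lipid of the autophagosome membrane. Gabarapl1 read 23.64, 23.7 and 23.2 FPKM in LPS and 37.45, 35.76, 33.12, 32.11 and 33.55 FPKM with Baf A1 (log2 change 0.53, SE 0.14, limma adjusted p = 0.00253). With CLA it ran from 33.64 to 55.4 FPKM (median 46.1) (0.92, SE 0.13, adjusted p = 3.35e-06). With siAtg5 it read 41.67, 43.24, 41.91, 50.97 and 39.12 FPKM, against 32.16, 20.59 and 18.38 FPKM in LPS+dNC (0.88, SE 0.14, adjusted p = 5.35e-06). None of the treated libraries overlapped its control group, and LPS+dNC replicate 1 stood above its 2 group mates.

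Gabarap, the most abundant of the 36, read 279.97, 280.99 and 351.12 FPKM in LPS, where replicate 3 was the highest. It read 338.48, 331.4, 341.49, 337.38 and 330.58 FPKM with Baf A1 (log2 change 0.15, limma adjusted p = 0.0445) and 313.54 to 360.61 FPKM (median 340.9) with CLA (0.16, adjusted p = 0.0257), and both groups overlapped LPS. Without LPS replicate 3 the changes were 0.26 with Baf A1 (adjusted p = 0.000306) and 0.27 with CLA (adjusted p = 0.00014). With Baf A1 the call held in 5 of 18 alternatives: the change was 0.10 in both cases without LPS replicate 1 or 2 (adjusted p = 0.262 and 0.253) and 0.15, 0.16, 0.15, 0.15 and 0.16 without LPS+Baf A1 replicate 1, 2, 3, 4 or 5 (adjusted p = 0.068, 0.0559, 0.0739, 0.0668 and 0.0541), with adjusted p up to 0.559 over the alternatives. With CLA it was 0.11 in both cases without LPS replicate 1 or 2 and 0.14 without LPS+CLA replicate 6 (adjusted p = 0.189, 0.184 and 0.0544), and -0.02 under quantile normalization, with adjusted p up to 0.849. In LPS+dNC Gabarap read 424.86, 371 and 375.08 FPKM, above all libraries of LPS+siAtg5, which read 280.22, 298.7, 301.95, 283.24 and 293.04 FPKM (-0.42, SE 0.063, adjusted p = 2.49e-06). Against LPS the change with siAtg5 was -0.05 and was not called.

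Map1lc3a was a minor member of the family and rose with siAtg5, from 6.21, 6.98 and 5.32 FPKM in LPS+dNC to 9.44, 10.47, 9.92, 10.2 and 10.19 FPKM (log2 change 0.63, SE 0.093, limma adjusted p = 1.84e-06), without overlap. It also rose with Baf A1 (5.14 against 4.03 FPKM, 0.28, adjusted p = 0.0132), which was 0.21 and not called after rescaling to the same sum (adjusted p = 0.0895). With CLA Map1lc3a was at -0.16 (adjusted p = 0.118), and at -0.28, -0.25 and -0.26 and called as fallen under median-of-ratios scaling, quantile normalization and rescaling to the same sum. Map1lc3b rose with siAtg5, from 43.5 FPKM in LPS+dNC to 56.7 FPKM (0.37, adjusted p = 6.63e-07), but read 0.06 and was not called under median-of-ratios scaling. Its changes of 0.10 with Baf A1 and -0.02 with CLA were not called, although without LPS replicate 3 the former was called at 0.14 (adjusted p = 0.034). Gabarapl2 rose with Baf A1 (37.2 against 30 FPKM, 0.31, adjusted p = 0.000335) and CLA (39.9 FPKM, 0.40, adjusted p = 7.96e-06) and fell with siAtg5 against LPS+dNC (42.5 against 56.3 FPKM, -0.40, adjusted p = 8.86e-06).

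Summed over the 5 genes, the family stood at 411.5 ± 46.9 FPKM in LPS (n = 3), 466.3 ± 3.66 with Baf A1 (n = 5), 477.1 ± 26.7 with CLA (n = 6), 520 ± 37.2 in LPS+dNC (n = 3) and 444 ± 11.2 in LPS+siAtg5 (n = 5). Gabarap made up 73.8% ± 1.46 of that sum in LPS, 72% ± 0.655 with Baf A1, 71% ± 1.41 with CLA, 75% ± 0.39 in LPS+dNC and 65.6% ± 1.19 in LPS+siAtg5. The share of Gabarapl1 was 5.77% ± 0.679 in LPS, 7.38% ± 0.441 with Baf A1, 9.63% ± 1.37 with CLA, 4.51% ± 1.07 in LPS+dNC and 9.77% ± 0.994 in LPS+siAtg5. Map1lc3b, the gene whose protein is usually followed in autophagy assays, held 12.2% ± 0.809 of the family in LPS and 8.38% ± 0.473 in LPS+dNC. Multiplying a library by a constant leaves such shares as they are.

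**Figure D3:**
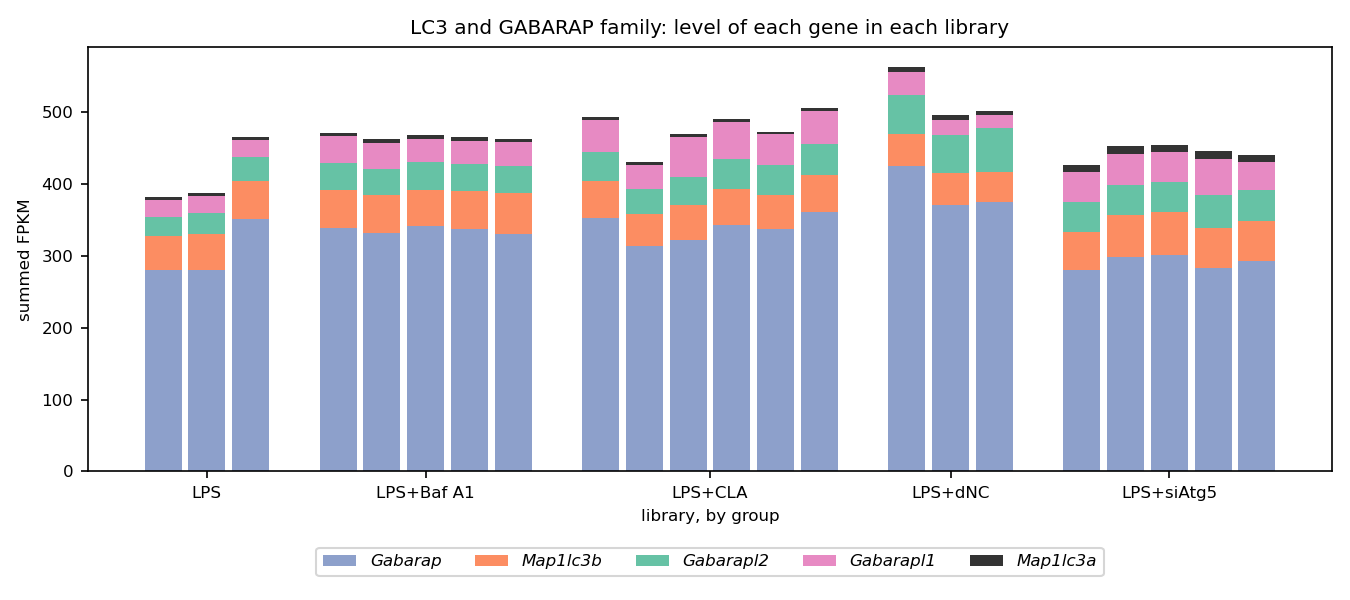
Summed FPKM of the 5 LC3 and GABARAP genes (y axis) in each of the 22 libraries, 1 bar per library, coloured by gene. Gabarap forms most of each bar, and the band of Gabarapl1 is wider with Baf A1, CLA and siAtg5 than in LPS.

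The ATG4 proteases trim LC3 and GABARAP proteins before attachment and release them afterwards. Atg4d read 12.99, 12.63 and 10.66 FPKM in LPS+dNC and 3.68, 4.24, 3.67, 3.18 and 3.36 FPKM in LPS+siAtg5. This change, -1.50 on the log2 scale (SE 0.076, limma adjusted p = 3.12e-14), was the largest of the 36 in any of the 3 designed comparisons. In LPS it read 4.28, 4.47 and 4.65 FPKM, close to the siAtg5 libraries (change against LPS -0.24), and LPS+dNC was the highest of the 5 groups. Kri1, which overlaps Atg4d on the other strand, was at 12.1 ± 1.17 FPKM in LPS+dNC and 16.4 ± 0.974 FPKM in LPS, the opposite order. The part of this overlap in the Atg4d values was not tested. With CLA Atg4d fell (3.73 FPKM, -0.21, adjusted p = 0.0159), and without LPS replicate 3 this was -0.19 (adjusted p = 0.0582, and up to 0.078 over the alternatives).

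Atg4b, the main LC3 protease, read 13.99, 14.75 and 13.33 FPKM in LPS+dNC and 19.04, 22.03, 23.06, 25.12 and 22 FPKM in LPS+siAtg5, without overlap (log2 change 0.63, SE 0.099, limma adjusted p = 4.61e-06). It rose with Baf A1, from 20.14, 22.21 and 16.55 FPKM to 23.35, 24.32, 26.27, 24.71 and 28.19 FPKM (0.36, SE 0.099, adjusted p = 0.00337), also without overlap. With CLA the change was 0.19 and was not called (adjusted p = 0.0804), but it was 0.28 and called without LPS replicate 2 (adjusted p = 0.0259) and 0.25 without LPS+CLA replicate 1 (adjusted p = 0.0167). Atg4a rose with Baf A1 (0.28) and CLA (0.40) and was at 0.05 with siAtg5. Atg4c was at -0.01 with Baf A1 and -0.004 with CLA, and with siAtg5 its call (0.18, adjusted p = 0.0299) held in 10 of 18 alternatives. Without LPS+dNC replicate 1 or 2 Atg4c was at 0.16 and 0.17 (adjusted p = 0.1 and 0.0868), and without LPS+siAtg5 replicate 1 or 5 at 0.15 and 0.16 (adjusted p = 0.0728 and 0.069).

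Fusion needs the autophagosomal SNAREs syntaxin 17 and SNAP29, the lysosomal SNARE VAMP8 and tethers such as EPG5, TECPR1 and PLEKHM1. Vamp8, the most abundant of them, read 186.66, 195.89 and 222.53 FPKM in LPS and 210.89, 209.7, 213, 205.1 and 213.01 FPKM with Baf A1 (log2 change 0.06, not called). Without LPS replicate 3, the highest LPS library, this was 0.14 and called as risen (adjusted p = 0.0128). With CLA it ran from 175.87 to 194.17 FPKM and was called as fallen (-0.11, limma adjusted p = 0.0436), but the change was -0.04 without LPS replicate 3 (adjusted p = 0.438), and -0.10, -0.10 and -0.12 without LPS+CLA replicate 3, 5 or 6 (adjusted p = 0.0906, 0.086 and 0.0518). It was lower in the other groups, at 170.69, 155.27 and 154.83 FPKM in LPS+dNC and 158.86, 165.92, 163.64, 166.54 and 163 FPKM in LPS+siAtg5 (change between them 0.03, adjusted p = 0.571, not called).

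Stx17 rose with siAtg5, from 3.74, 4.1 and 4.25 FPKM in LPS+dNC to 7.37, 6.76, 5.91, 6.21 and 6.64 FPKM, without overlap (log2 change 0.59, SE 0.11, limma adjusted p = 3.5e-05). Under quantile normalization this was 0.17 and not called. The changes with Baf A1 (0.14) and CLA (0.08) were not called. Plekhm1, an adaptor that links RAB7 and the HOPS tether to LC3, fell with Baf A1 and rose with siAtg5. Plekhm1 read 35.33, 34.38 and 34.83 FPKM in LPS and 25.03, 24.49, 24.63, 24.26 and 23.59 FPKM with Baf A1 (-0.50, SE 0.082, adjusted p = 1.9e-05), and 51.12, 38.87 and 34.2 FPKM in LPS+dNC and 58.64, 55.16, 58.37, 54.03 and 56.58 FPKM in LPS+siAtg5 (0.46, SE 0.082, adjusted p = 2.24e-05). Neither pair of groups overlapped, although LPS+dNC replicate 1 lay well above its group mates, and the siAtg5 rise was not called under median-of-ratios scaling (0.14).

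Tecpr1 fell with siAtg5 (7.81 against 9.47 FPKM, log2 change -0.25, limma adjusted p = 0.000493, and -0.04, not called, after rescaling to the same sum) and with CLA (7.87 against 9.43 FPKM, -0.23, adjusted p = 0.0012) and was at -0.01 with Baf A1. Snap29 was called as risen with siAtg5 (0.20, adjusted p = 0.0261) and CLA (0.20, adjusted p = 0.0283). Both calls depended on scaling. With CLA it was not called under median-of-ratios scaling, quantile normalization or rescaling to the same sum (limma adjusted p up to 0.451 over the alternatives). With siAtg5 it read -0.11 under median-of-ratios scaling and was not called under quantile normalization. Snap29 was at 0.10 and 0.16 with siAtg5 without LPS+dNC replicate 1 or 2 (adjusted p = 0.284 and 0.124) and at 0.35 without LPS+dNC replicate 3 (adjusted p = 5.94e-05), and at 0.20, 0.19 and 0.19 with CLA without LPS replicate 1, LPS replicate 2 or LPS+CLA replicate 6 (adjusted p = 0.0664, 0.0897 and 0.0523). In the reported model Epg5 was called with CLA alone (4.39 against 3.7 FPKM, 0.22, adjusted p = 0.0439), and LPS replicate 3, at 2.53 FPKM, lay below its group mates at 4.15 and 4.42 FPKM. Without LPS replicate 3 the change of Epg5 was 0.03 (adjusted p = 0.741), without LPS replicate 2 0.34 (adjusted p = 0.00573), and without LPS+CLA replicate 1, 3 or 4 it was 0.21, 0.21 and 0.22 (adjusted p = 0.0743, 0.0739 and 0.0566).

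The siRNA libraries were also set against LPS. Against LPS in place of LPS+dNC, 16 of the 36 genes rose (44.4%, against 61.2% of all genes tested) and 6 fell (16.7%, against 15.6%), while median-of-ratios scaling gave 7 rises and 19 falls and quantile normalization 8 and 17. LPS+dNC itself differed from LPS in 9 genes that rose (25%, against 29% of all genes) and 8 that fell (22.2%, against 28.1%), and after rescaling to the same sum in 7 and 18. Both contrasts of the siRNA share the 5 LPS+siAtg5 libraries. The values against LPS+dNC and LPS stand side by side: -0.17 and -0.22 for Atg2a, -1.50 and -0.24 for Atg4d, -0.25 and -0.24 for Tecpr1, 0.63 and 1.13 for Map1lc3a, and 0.46 and 0.68 for Plekhm1.

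Calls of opposite sign against the 2 controls were made for Rb1cc1 and Gabarapl2. Gabarapl2 read 27.07, 28.3 and 34.54 FPKM in LPS, 55.14, 53.58 and 60.26 FPKM in LPS+dNC and 41.33, 41.19, 42.11, 45.42 and 42.61 FPKM in LPS+siAtg5, so the siRNA libraries lay between the 2 controls without overlap. Its log2 change was -0.40 against LPS+dNC and 0.50 against LPS. Uvrag, Ulk2, Tmem41b and Gabarapl1 had close values against both: -0.59 and -0.58 for Uvrag, 0.81 and 0.72 for Ulk2, 0.78 and 0.63 for Tmem41b and 0.88 and 0.85 for Gabarapl1. Between LPS+dNC and LPS no difference was called for any of these 4 (0.003, -0.08, -0.15 and -0.03). Its largest differences from LPS were 1.26 for Atg4d, -0.90 for Rb1cc1, 0.89 for Gabarapl2, 0.79 for Wipi1 and 0.61 for Atg9a.

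**Figure D4:**
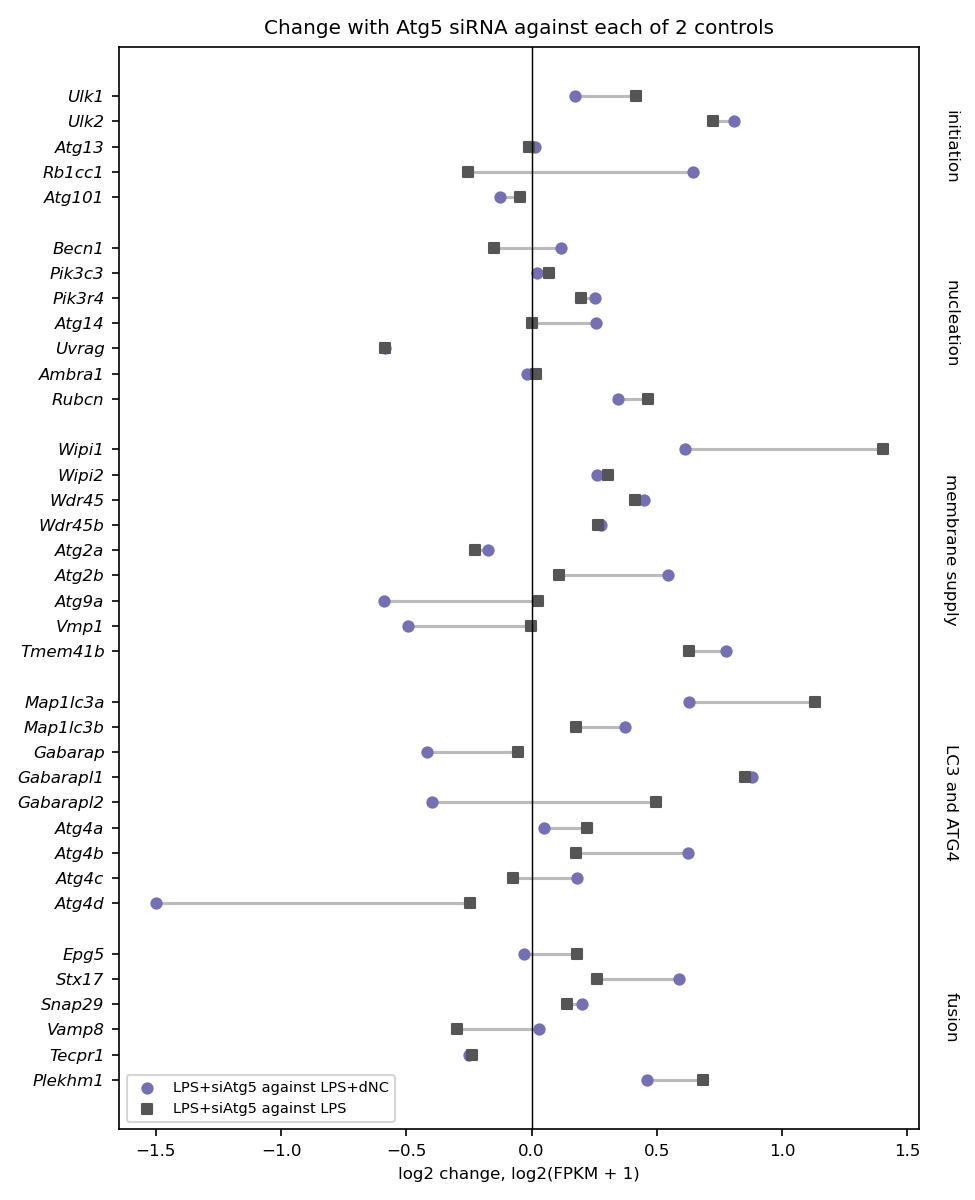
Log2 change of each of the 36 genes in LPS+siAtg5 against LPS+dNC (circles) and against LPS (squares), joined by a line, on the log2(FPKM + 1) scale. The 2 points of Uvrag coincide near -0.58, while those of Rb1cc1 and Gabarapl2 lie on opposite sides of 0 and those of Atg4d are far apart (-1.50 and -0.24).

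CLA and Baf A1 were also compared directly. Between LPS+CLA and LPS+Baf A1, 8 of the 36 genes were higher with CLA (22.2%, against 35.4% of all genes tested) and 12 were lower (33.3%, against 19%), and under both median-of-ratios scaling and quantile normalization 5 were higher and 18 lower. Lower with CLA were Map1lc3a (log2 difference -0.44, limma adjusted p = 4.21e-05), Atg13 (-0.44, adjusted p = 2.51e-09), Wipi1 (-0.41, adjusted p = 5.77e-05), Wdr45 (-0.41), Ulk1 (-0.40), Atg2a (-0.35) and Wipi2 (-0.35). Higher with CLA were Plekhm1 (0.41, adjusted p = 2.16e-05), Gabarapl1 (0.40, adjusted p = 0.0061), Tmem41b (0.39, adjusted p = 0.000197) and Vmp1 (0.28). Uvrag (-0.07) and Atg14 (-0.06) were not called in this comparison.

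The effect of Baf A1 over LPS was then set against that of siAtg5 over LPS+dNC as a difference of the 2 contrasts. The Baf A1 effect was the more positive in 11 of the 36 genes (30.6%, against 20.4% of all genes tested) and the more negative in 12 (33.3%, against 52.3%). These counts became 17 and 4 under median-of-ratios scaling, 17 and 5 under quantile normalization, and 4 and 21 after rescaling to the same sum. The largest differences were -1.58 for Rb1cc1 (limma adjusted p = 1.3e-09), 1.54 for Atg4d (adjusted p = 2.44e-11), 1.09 for Atg9a (adjusted p = 1.55e-09), -0.96 for Plekhm1 (adjusted p = 1.65e-07) and -0.84 for Ulk2 (adjusted p = 1.23e-09). For Rb1cc1, Atg4d and Atg9a the LPS+dNC libraries lay far from LPS, as given above, and for Plekhm1 (0.22) and Ulk2 (-0.08) they lay nearer. No difference was called for Wipi1 (0.18, adjusted p = 0.203) or Gabarapl1 (-0.35, adjusted p = 0.113).

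A further 42 autophagy genes were followed for context, of which 41 were tested: the LC3-attaching enzymes, cargo receptors, nutrient signalling, and the RAB7, HOPS and SNARE partners of fusion. With Baf A1 12 rose (28.6% of the 42, against 32.7% of all genes tested) and 13 fell (31%, against 25.1%). After rescaling to the same sum 7 rose and 18 fell. The clearest rises were of the mitophagy receptors Bnip3 (log2 change 1.31, limma adjusted p = 5.64e-09) and Bnip3l (0.56) and of Prkag1, an AMPK subunit (0.41). The clearest falls were of the cargo receptors Tax1bp1 (-0.55) and Optn (-0.74) and of Atg3, the LC3-transferring enzyme (-0.52).

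With CLA, 10 of these genes rose (23.8% of the 42, against 40.4% of all genes tested) and 12 fell (28.6%, against 22.6%). Median-of-ratios scaling gave 6 and 18. Bnip3 (1.58, limma adjusted p = 8.94e-11), Bnip3l (0.68) and Prkag1 (0.53) led the rises. The falls were led by Sqstm1, which encodes the cargo receptor p62 (283.4 against 548.6 FPKM, -0.95, adjusted p = 4.36e-09), Atg3 (-0.37) and Mitf, a relative of TFEB (-0.55).

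With siAtg5 against LPS+dNC, 21 rose (50% of the 42, against 59.6% of all genes tested) and 13 fell (31%, against 21.6%). Median-of-ratios scaling gave 10 and 22, with 14 and 18 under quantile normalization, and 28 and 7 after rescaling to the same sum. The rises with the smallest adjusted p were of Lamp1, a lysosomal membrane protein (0.41), Rab7 (0.37) and the receptor Calcoco1 (0.79), and the falls were of Atg12, the partner to which ATG5 is joined (-0.84, limma adjusted p = 2.76e-14), Tax1bp1 (-0.84) and the targeted Atg5 (-0.73). Of the 7 LC3-attaching genes, 5 fell, the targeted Atg5 among them, and 2 rose, where 21.6% of all genes tested fell and 59.6% rose.

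Some of the 36 genes share sequence with others, and the sources used here do not state whether counting used strand. Measured as 50-base words of GENCODE M21 transcripts, 63.6% of Atg4a was shared with the pseudogene Atg4a-ps, 45.4% of Becn1 with Cntd1 on the other strand, 34.9% of Atg9a mostly with Gm29253, 24.4% of Wdr45 with Gm45208 and 23.1% of Gabarapl1 with 1700101I11Rik on the other strand. Atg4d (18.2%), Gabarapl2 (17%), Tmem41b (14.3%) and Rb1cc1 (13.8%) followed. Values of these genes are uncertain to the extent that reads were assigned to the partner. Cntd1 averaged at most 0.17 FPKM in any group. Ankzf1, which overlaps Atg9a on the other strand, was at 6.86 ± 0.344 FPKM in LPS+dNC and 5.42 ± 0.785 FPKM in LPS. Like Atg9a, it fell with siAtg5 against LPS+dNC (-0.53) and was higher in LPS+dNC than in LPS (0.30). With Baf A1 (0.06) and CLA (0.10) Ankzf1 was not called, while Atg9a rose. The part of such overlap in the members' values was not tested.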

How the data were processed

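Poly(A) RNA of 22 libraries was measured by RNA-seq. Per the submitters' processing notes the authors' tools included CASAVA 1.7, fastp 0.18.0, Bowtie2 2.2.8, HISAT2 and StringTie 1.3.1; the sources used here name neither genome build nor annotation. The deposited values are FPKM per gene symbol, per the file headers, which name that unit for 19 columns and no unit for the 3 LPS+dNC columns. Read depth is unknown, so no counting error can be given. Genes reaching 1 FPKM in 3 or more libraries entered the test, log2(FPKM + 1) was fitted with limma 3.58.1 in R 4.3.3 (5 group means, 17 residual degrees of freedom, trend and robust variance moderation), and p-values were adjusted by the Benjamini-Hochberg method over all 11070 genes. A count model, allowed for in the design in case the files held counts, was not used. The procedure was tested on simulated data. Library values are given for genes called in at least 1 of the 3 designed comparisons with a log2 change of at least 0.5 in size and no overlap between groups. They are also given for the gene of each step with the highest mean over all libraries. Of the other autophagy genes, up to 3 per direction with the smallest adjusted p are named. Further genes with values were chosen after their values were seen. The members and lists were chosen with earlier results of these data known. Alternatives covered the pseudocount, filter, scaling, groups fitted, array weights, a replicate block, and libraries left out.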

Additional observations from a re-analysis of the deposited data

Results flagged for a closer look

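In 7 of 108 groups of 5 or 6 libraries, 1 library stood apart from the others by Dixon's test, and chance marks about 1 in 20 groups. In LPS+CLA replicate 2, Vmp1 read 66.92 FPKM against 81.42 to 85.55 in the other 5, Snap29 26.63 FPKM against 32.41 to 33.57, Plekhm1 28.1 FPKM against 33.31 to 34.72, and Uvrag 18.92 FPKM against 17.35 to 17.8. In LPS+Baf A1, Atg14 read 5.64 FPKM in replicate 5 against 3.31 to 3.51 FPKM, Tmem41b 15.59 FPKM in replicate 3 against 11.38 to 12.54 FPKM, and Stx17 5.22 FPKM in replicate 1 against 6.06 to 6.19 FPKM. Their causes were not tested.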

How the results depend on the processing

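Of 1977 values of the 36 genes under the alternatives, 1707 kept their sign and side of the threshold, 57 became called and 115 lost their call. Another 98 changed sign, of which 25 were called before or after and are given below; the other 73, over 18 genes, were called in neither case and at most 0.17 in size. Under median-of-ratios scaling, 9 members rose and 16 fell with siAtg5 against LPS+dNC (other autophagy genes 10 and 22), 9 and 17 with CLA (6 other genes rose), 7 and 19 with siAtg5 against LPS, 5 were higher with CLA than with Baf A1, and the difference of effects gave 17 and 4. Under quantile normalization these were 10 and 16, 9 and 14, 8 and 17, 5, and 17 and 5. After rescaling to the same sum, 7 other genes rose with Baf A1, 7 fell with siAtg5, 9 members rose with CLA, 18 fell in LPS+dNC against LPS, and the difference of effects gave 4 and 21. Fitted on its 2 groups only, LPS+dNC against LPS had 5 falls. Of the 25, those with siAtg5 under median-of-ratios scaling were Atg13 -0.29, Becn1 -0.20, Pik3c3 -0.27, Pik3r4 -0.028, Atg14 -0.011, Wipi2 -0.039, Wdr45b -0.038, Atg4a -0.25, Atg4c -0.087, Snap29 -0.11 and Vamp8 -0.29. Under quantile normalization they were Ulk1 -0.21, Atg13 -0.31, Pik3c3 -0.31, Pik3r4 -0.13, Atg14 -0.21, Wipi2 -0.060, Wdr45 -0.014, Atg4a -0.24 and Atg4c -0.30, and after rescaling Ambra1 0.20 and Atg2a 0.027. With CLA, Atg13 read -0.13 under median-of-ratios scaling and -0.12 under quantile normalization, and Gabarap -0.017 under the latter. The causes were not tested.

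Leaving out 1 library at a time gave 12 to 15 rises and 5 falls with Baf A1 (other genes 9 to 13 and 12 to 14), 16 to 19 and 7 to 8 with siAtg5 against LPS+dNC (19 to 21 and 13 to 14), 11 to 14 and 7 to 9 with CLA (10 to 12 and 9 to 13), 14 to 19 and 4 to 6 with siAtg5 against LPS, 8 to 10 and 6 to 9 for LPS+dNC against LPS, 6 to 11 and 11 to 13 for CLA against Baf A1, and 9 to 11 and 10 to 14 for the difference of effects. Libraries shared only a replicate number: deviations of same-numbered libraries correlated at -0.113 to 0.0906. With the replicate number as a block, 12 members rose and 5 fell with Baf A1, 17 and 7 with siAtg5 against LPS+dNC, and 10 and 6 with CLA. Values without depth limit what can be said of low genes.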
